A study of Mus musculus with 48 samples.

Results

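The genes described here are 32 that serve the folding of secreted and membrane proteins in the endoplasmic reticulum (ER) or the stress response that watches over it. They were chosen by name, with earlier results of these data known, and all 32 were found among the 49568 genes of the count table. The shares of all genes set beside theirs below are therefore a description and not an independent test. The libraries held poly(A) RNA of the mouse macrophage cell line RAW264.7. The cells received phosphate-buffered saline (PBS) or 1 of 3 synthetic 15-mer peptides at 100 µg/ml for 72 h, each with or without interferon-γ (IFN-γ) at 5 ng/ml, and the medium was refreshed at 48 h. The peptides span residues 65 to 79 of the HLA-DR β chain: LE from the lupus risk allele DRB1*03:01, SE from DRB1*04:01, a risk allele of rheumatoid arthritis, and PE from DRB1*04:02, linked to protection. The 8 groups were thus PBS, LE, SE, PE, IFN-γ, LE+IFN-γ, SE+IFN-γ and PE+IFN-γ. All came from 1 cell line, so none is a model of an intact animal or of human cells. Each group holds 6 libraries in 2 series of labels, with 3 libraries named by letters and 3 named HLA, and the results below rest on the 24 letter-named libraries. The HLA-named libraries were left out because 12 of those 24 went against their IFN-γ label in the level of 20 IFN-γ target genes, whereas 0 of the 24 letter-named libraries did. When they were added by their labels, with the series as a term, the numbers of genes called changed: from 19 to 0 for IFN-γ against PBS, from 26 to 17 for LE+IFN-γ, from 27 to 0 for SE+IFN-γ and from 6 to 0 for PE+IFN-γ against IFN-γ, and the interactions below had 0. These numbers are given without the share of all genes called in that setting. Because 12 of the added libraries went against their label, that setting put libraries of unlike IFN-γ target level into 1 group. It could therefore not check the results below. The results are those of 1 series of libraries. The study describes its replicates as biological and from independent experiments, but the labels do not tie a library to an experiment or culture, so the p-values measure the spread between these libraries.

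The ER folds proteins with chaperones such as BiP, the product of Hspa5, with lectins that hold glycoproteins, and with isomerases that set disulfide and proline bonds. Proteins that fail to fold are pulled back to the cytosol and degraded. The membrane sensors, products of Ern1, Eif2ak3 and Atf6, respond to unfolded protein, and through spliced Xbp1, through translation control and through cleaved ATF6 they raise the transcription of chaperone and degradation genes. Macrophages are secretory cells, and this response is also known to cross-talk with their inflammatory signalling.

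The ER stress element (ERSE) is the sequence through which ATF6 and XBP1, with the factor NF-Y, act on chaperone promoters. In the RefSeq promoter table (build GRCm38.p6, from 250 bases before to 50 bases after each start), 27 of the 32 genes had an entry. The ERSE, CCAAT and CCACG with 9 bases of any kind between them, was searched on both strands, as were the others, and was present in 8 of the 27 genes (29.6%) against 0.137% of 27025 genes. The related ERSE-II, ATTGG and CCACG with 1 base between them, was present in 2 of the 27 (7.41%) against 0.0444%. The element UPRE, TGACGTGG, was in 0 of the 27 against 0.714%. CCAAT alone, which every ERSE contains, was in 85.2% of the genes against 41.1%. A match here is a description of letters, not of a bound site. The ERSE is already known from chaperone promoters, so its higher share among these genes is not an independent result. The promoters below are shown because their genes carry the results that follow, with the fixed bases of each match in capitals. Creld2, Dnajc3, Hsp90b1 and Dnajb11 had among the largest decreases with LE, Hspa5 and Herpud1 the largest increases with IFN-γ, Canx holds the element but did not pass the test with LE, and Ern1 holds none of the elements and rose.
Hspa5: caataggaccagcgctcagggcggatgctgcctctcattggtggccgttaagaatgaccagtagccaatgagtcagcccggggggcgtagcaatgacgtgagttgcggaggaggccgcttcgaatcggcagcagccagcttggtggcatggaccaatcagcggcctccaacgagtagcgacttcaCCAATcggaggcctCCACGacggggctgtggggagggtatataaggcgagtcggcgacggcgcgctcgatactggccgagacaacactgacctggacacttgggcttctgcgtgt
Creld2: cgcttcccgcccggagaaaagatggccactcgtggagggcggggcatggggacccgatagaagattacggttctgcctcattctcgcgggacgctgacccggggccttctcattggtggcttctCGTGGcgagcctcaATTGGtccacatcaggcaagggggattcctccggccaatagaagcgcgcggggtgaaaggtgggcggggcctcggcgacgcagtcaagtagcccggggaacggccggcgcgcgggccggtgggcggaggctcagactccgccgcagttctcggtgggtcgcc
Dnajc3: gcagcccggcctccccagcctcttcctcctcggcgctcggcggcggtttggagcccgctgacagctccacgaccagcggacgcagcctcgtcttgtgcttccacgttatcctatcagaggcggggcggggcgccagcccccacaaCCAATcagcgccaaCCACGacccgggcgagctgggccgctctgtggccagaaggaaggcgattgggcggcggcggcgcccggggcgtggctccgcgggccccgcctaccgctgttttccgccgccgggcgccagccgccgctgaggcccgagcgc
Hsp90b1: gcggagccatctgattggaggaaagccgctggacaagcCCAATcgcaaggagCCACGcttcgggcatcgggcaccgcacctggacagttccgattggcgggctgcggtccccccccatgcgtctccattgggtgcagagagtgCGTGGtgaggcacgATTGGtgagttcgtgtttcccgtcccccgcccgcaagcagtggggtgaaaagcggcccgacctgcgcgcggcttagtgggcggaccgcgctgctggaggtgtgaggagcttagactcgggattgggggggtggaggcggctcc
Herpud1: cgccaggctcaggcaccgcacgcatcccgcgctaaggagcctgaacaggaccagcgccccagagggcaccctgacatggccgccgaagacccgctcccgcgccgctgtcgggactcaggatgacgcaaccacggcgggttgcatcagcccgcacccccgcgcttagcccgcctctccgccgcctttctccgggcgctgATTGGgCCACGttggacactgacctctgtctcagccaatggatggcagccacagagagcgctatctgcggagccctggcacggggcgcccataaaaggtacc
Dnajb11: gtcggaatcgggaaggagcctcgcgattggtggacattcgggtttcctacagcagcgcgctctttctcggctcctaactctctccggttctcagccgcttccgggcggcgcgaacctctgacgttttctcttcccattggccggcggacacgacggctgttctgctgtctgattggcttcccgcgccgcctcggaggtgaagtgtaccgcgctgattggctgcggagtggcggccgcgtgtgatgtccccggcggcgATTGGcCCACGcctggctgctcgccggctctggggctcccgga
Canx: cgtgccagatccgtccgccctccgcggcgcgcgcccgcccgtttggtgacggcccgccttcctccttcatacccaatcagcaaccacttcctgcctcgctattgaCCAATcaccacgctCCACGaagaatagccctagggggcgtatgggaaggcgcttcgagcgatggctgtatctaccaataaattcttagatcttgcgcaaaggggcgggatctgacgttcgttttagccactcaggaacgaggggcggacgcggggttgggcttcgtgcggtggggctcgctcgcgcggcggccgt
Ern1: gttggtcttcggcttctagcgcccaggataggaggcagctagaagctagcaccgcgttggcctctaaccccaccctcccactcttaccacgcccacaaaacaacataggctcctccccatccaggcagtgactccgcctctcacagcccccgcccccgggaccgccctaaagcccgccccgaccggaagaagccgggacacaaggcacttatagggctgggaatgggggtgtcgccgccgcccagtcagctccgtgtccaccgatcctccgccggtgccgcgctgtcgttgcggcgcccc
Each is written 5′ to 3′ on the gene's own strand. The windows are chr2:34771840-34772139, plus strand for Hspa5, chr15:88819396-88819695, plus strand for Creld2, chr14:118937682-118937981, plus strand for Dnajc3, chr10:86705395-86705694, minus strand for Hsp90b1, chr8:94386179-94386478, plus strand for Herpud1, chr16:22857595-22857894, plus strand for Dnajb11, chr11:50325624-50325923, minus strand for Canx and chr11:106487747-106488046, minus strand for Ern1. The first base of the match lay at position -65 from the start in Hspa5, -105 in Dnajc3, -126 in Creld2, -145 in Canx and -52 in Herpud1. Hsp90b1 had 2 matches, at -212 and -107. The match of Dnajb11 lay at 8, within the transcribed part. The other members with an ERSE were Derl3, Pdia6 and Syvn1.

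The letter-named libraries held 16498562 to 26929356 counts. Macrophage markers summed to between 6178 and 11310 CPM (the count scaled to the library total) in every library, whereas the markers of T cells, B cells, fibroblasts, epithelium and endothelium each summed to at most 2.62 CPM. The mean log2 level of the IFN-γ target genes was 2.55 to 2.75 without IFN-γ and 6.60 to 6.99 with it. Of the 32 genes, 31 passed the filter on low counts and were tested. Derl3, a member of the Derlin channel proteins, was at 0 in 14 of the 24 libraries and never above 3 counts, so that it could not be compared at this depth. These were bulk samples, in which fewer cells of a kind and less RNA per cell cannot be told apart.

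Per kilobase of exon in the PBS libraries, Hspa5 was the most abundant of the 32 genes at 1735 CPM per kb. It was followed by P4hb, the archetypal protein disulfide isomerase, at 1356, by Hsp90b1, the Hsp90 of the ER, at 983 and by Pdia3, the isomerase that works with the lectin chaperones, at 802. The sensors stood at the other end, with Ern1 at 9.58 and Eif2ak3 at 8.84 CPM per kb. On the scale of CPM without length, the spreads of Hsp90b1 (3962 ± 75.7 CPM, mean ± SD, n = 3) and P4hb (3879 ± 358 CPM) overlapped, whereas Hspa5 at 7336 ± 1115 CPM stood above both. The 32 genes together took 3.30% ± 0.18 (SD, n = 3) of all counts in PBS. Their share was 4.32% ± 0.061 with IFN-γ, 4.06% ± 0.058 with PE+IFN-γ, 3.12% ± 0.087 with SE+IFN-γ and 2.75% ± 0.17 with LE+IFN-γ. Hspa5 alone made up 22.2% of that share in PBS, 33.4% with IFN-γ and 36.9% with LE+IFN-γ. Without Hspa5, the other members took 2.56% in PBS, 2.87% with IFN-γ, 2.03% with SE+IFN-γ and 1.73% with LE+IFN-γ. With LE or SE added to IFN-γ the sum of the other members thus stood below that in PBS, while Hspa5 stood above it. Not every single member was lower: Ern1 was above all PBS libraries in both groups, and Dnajb9 with LE+IFN-γ.

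**Figure D1:**
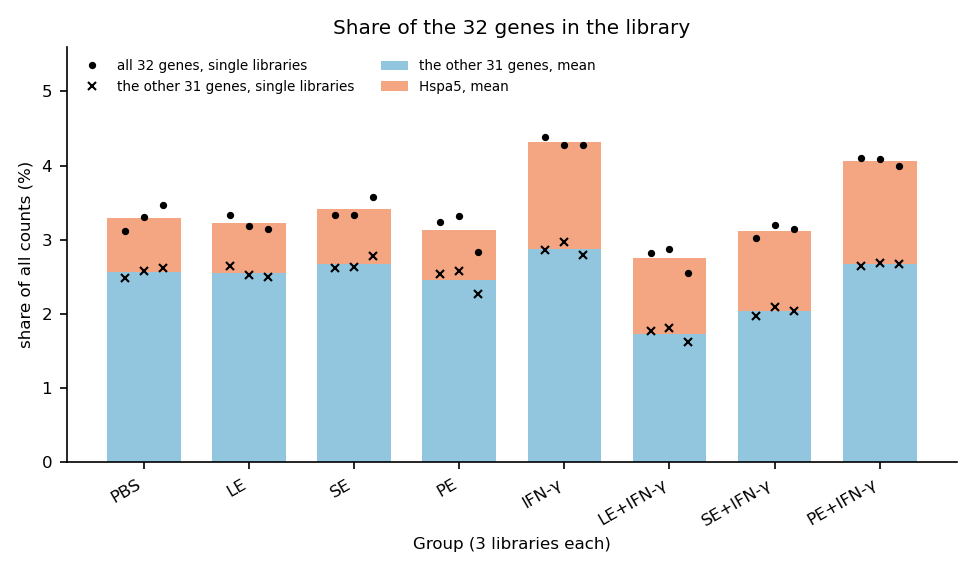
Share of all counts taken by the 32 genes (y axis, %) in the 8 groups (x axis), with bars for the mean of Hspa5 and of the other 31 genes and marks for the 3 single libraries of each group. The total is highest with IFN-γ (4.32%) and PE+IFN-γ (4.06%), and the part without Hspa5 is lowest with LE+IFN-γ (1.73%).

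**Figure D2:**
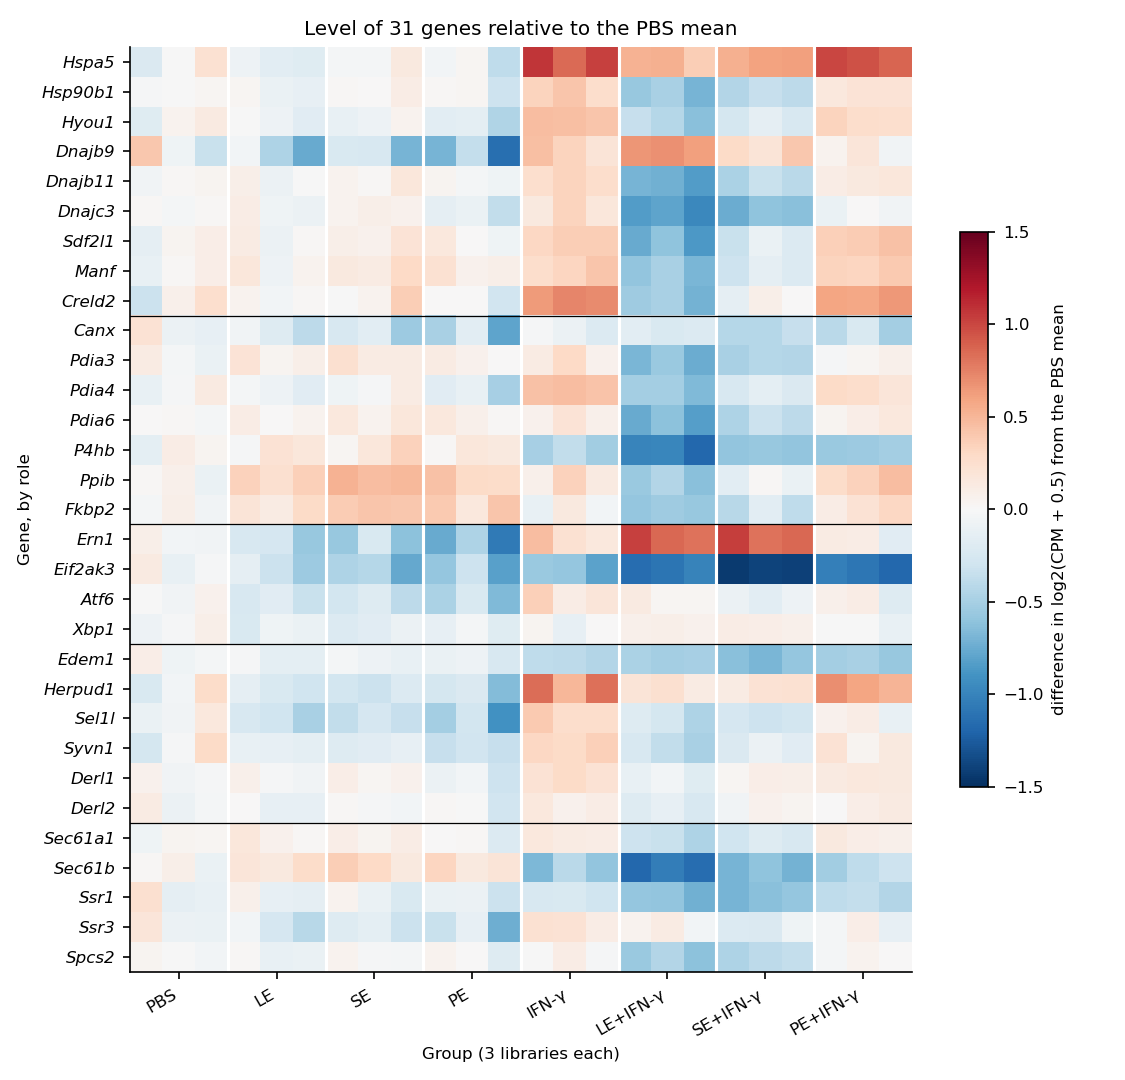
Level of the 31 tested genes in the 24 libraries, as the difference in log2(CPM + 0.5) from the gene's mean over the PBS libraries (colour), with genes in rows by role and 3 libraries per group in columns. Most chaperone rows are above PBS with IFN-γ and PE+IFN-γ and below it with LE+IFN-γ, while Ern1 is highest with LE+IFN-γ and SE+IFN-γ.

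IFN-γ alone raised most ER chaperones and lowered a smaller set of genes that included P4hb and Eif2ak3. Of the 31 genes, 14 were higher and 5 lower than in PBS by edgeR's quasi-likelihood test at an adjusted p under 0.05, against 39.7% of all 12242 genes called in this comparison (20.2% higher and 19.5% lower). Over 1.5-fold there were 4 of the 31 (12.9%), a smaller share than the 18.1% of all genes. Of these, 3 were higher (9.68%, against 9.79% of all genes) and 1 lower (3.23%, against 8.28%). Without replicate 2 of both groups 11 of the 31 were called, and Atf6 and Ssr1 lost their call whichever replicate was left out. Dnajc3 and Derl1 lost theirs without replicate 2, without replicate 3 and with offsets for transcript length and GC content (0.16 and 0.14). Ern1 lost its call without replicate 2, P4hb without replicate 3 and Sel1l without replicate 1 or 2. The median log2 fold change was 0.23 over the 31 genes and -0.0087 over all genes. In the following, the value after ± beside a log2 fold change is its standard error and each group has 3 libraries. The adjusted p is that of edgeR, by Benjamini-Hochberg over all genes tested.

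Among the chaperones of the Hsp70 and Hsp90 systems, 8 of 9 rose with IFN-γ. Hspa5 was at 6272, 7240.3 and 8495 CPM in PBS and 15321, 13076 and 14856 CPM with IFN-γ. The groups did not overlap, and the log2 fold change was 0.99 ± 0.12 (adjusted p = 5.72e-05). Creld2, an ER stress-inducible protein, was at 601, 793 and 901 CPM in PBS and 1171, 1249.7 and 1237 CPM with IFN-γ, again without overlap (0.69 ± 0.13, adjusted p = 0.00118). Hyou1, the large Hsp70-like partner of BiP, rose by 0.45 ± 0.094, and the smallest rise of the 8 was that of Dnajc3, a J-domain co-chaperone, at 0.23 ± 0.074 (adjusted p = 0.0261). Dnajb9, a J-domain protein that acts on IRE1, was at 44.2, 31.8 and 26.3 CPM in PBS and 45.8, 42.2 and 38.1 CPM with IFN-γ, and these ranges overlapped (adjusted p = 0.114). Of the lectin chaperone and isomerases, Pdia4 was the 1 of 7 that rose (0.46 ± 0.082) and P4hb the 1 that fell. Pdia4 was at 935, 999 and 1108 CPM in PBS and 1373, 1398 and 1356 CPM with IFN-γ. P4hb was at 3487, 4187 and 3964 CPM in PBS and 2739, 2984 and 2696 CPM with IFN-γ (-0.45 ± 0.092, adjusted p = 0.00241). Every IFN-γ library was thus below every PBS library for P4hb, and above every one for Pdia4.

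The degradation and translocation genes moved in both directions with IFN-γ. Herpud1, a scaffold of the retrotranslocation complex, was at 353, 401 and 501 CPM in PBS and 739.6, 586 and 736 CPM with IFN-γ, with no overlap (0.73 ± 0.13, adjusted p = 0.000914). Sel1l, the partner of the ubiquitin ligase Syvn1, and Derl1 also rose (0.32 and 0.26), and Edem1, which hands misfolded glycoproteins to that complex, fell (-0.39, adjusted p = 0.000963). Sec61b, a small subunit of the translocation channel, was at 170.4, 179 and 158 CPM in PBS and 106, 127 and 112 CPM with IFN-γ (-0.54 ± 0.085, adjusted p = 0.000429). All 3 IFN-γ libraries were below the PBS libraries. Ssr1, of the translocon-associated complex, was the other translocation gene of 5 that fell, with -0.25 (adjusted p = 0.049).

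The sensors differed among themselves. Ern1 (IRE1α, the kinase and RNase that splices Xbp1) was at 83.1, 76.2 and 75.6 CPM in PBS and 108, 91.5 and 87.3 CPM with IFN-γ (0.30 ± 0.082, adjusted p = 0.0118). Eif2ak3 (PERK, the kinase that slows translation) was at 58.2, 49.3 and 52.4 CPM in PBS and 35.9, 35.3 and 30.2 CPM with IFN-γ (-0.64 ± 0.091, adjusted p = 0.000205). So Ern1 was higher and Eif2ak3 lower in every IFN-γ library than in any PBS library. Atf6 was at 287, 276 and 299 CPM in PBS and 369, 309 and 325 CPM with IFN-γ (0.23 ± 0.077, adjusted p = 0.0294), and Xbp1 at 299.8, 312 and 336 CPM in PBS and 326, 290.3 and 317 CPM with IFN-γ. The Xbp1 ranges overlapped (adjusted p = 0.954). The counts per gene do not separate spliced from unspliced Xbp1.

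**Figure D3:**
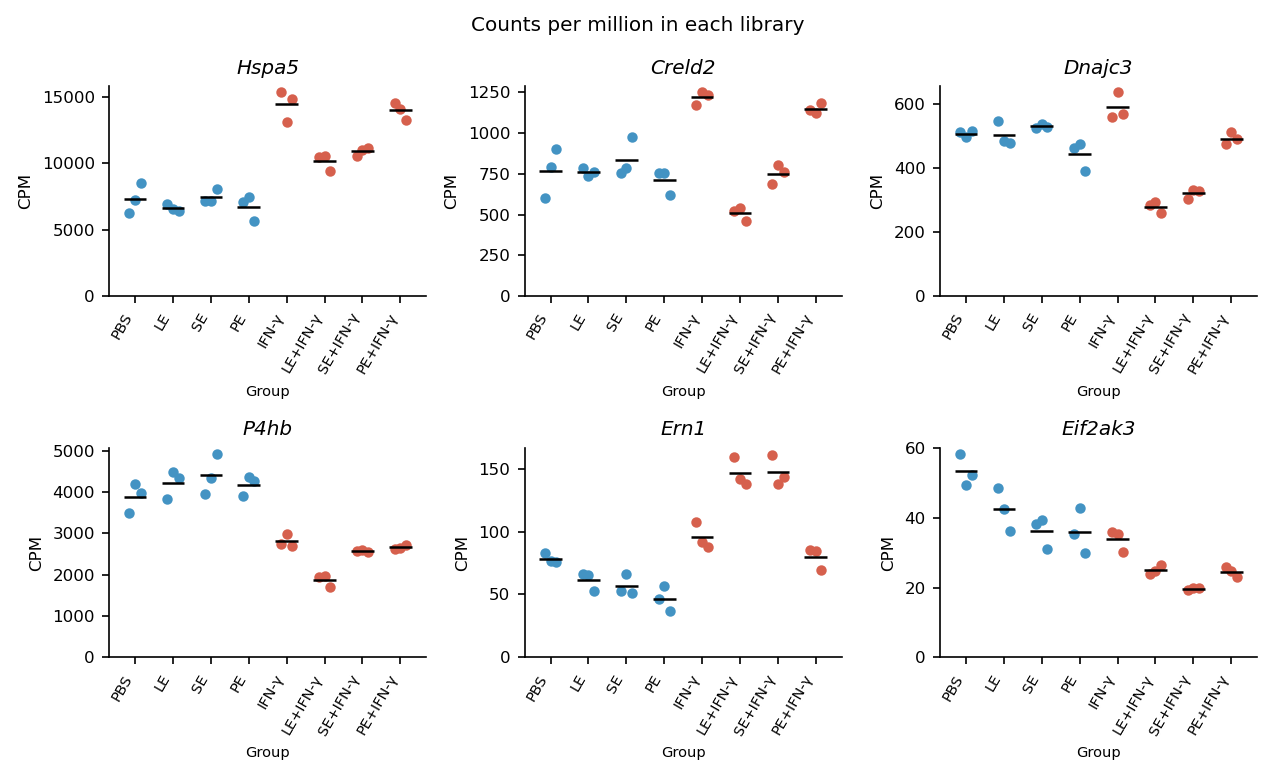
CPM (y axis, from 0) of Hspa5, Creld2, Dnajc3, P4hb, Ern1 and Eif2ak3 in each library of the 8 groups (x axis), with points for single libraries, lines for means, blue without IFN-γ and red with it. Hspa5 stays above PBS in all groups with IFN-γ, Creld2 and Dnajc3 drop to 461 to 538 and 259 to 293 CPM with LE+IFN-γ, and Ern1 rises to 138 to 161 CPM with LE+IFN-γ and SE+IFN-γ.

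Without IFN-γ none of these genes passed the test with LE, and a few did with SE and PE, among them Ppib, which rose, and Ern1 and Eif2ak3, which fell. With LE against PBS 0 of the 31 were called by edgeR, against 0.0242% of 12420 genes. At the same time 8 had an unadjusted p under 0.05, a count that was not made over all genes, and DESeq2 called 1. The values ranged from -0.39 for Dnajb9 to 0.36 for Ppib. SE against PBS gave 4 higher and 2 lower (19.4% of the 31), against 14.3% of all genes called (7.77% higher, 6.58% lower). PE gave 3 higher and 5 lower (25.8%), against 20% of all genes called (9.98% in each direction). Both numbers were thus near the share of all genes. Past 1.5-fold there were 0 with SE (1.92% of all genes) and 2 with PE (3.13%). Ppib (cyclophilin B, a prolyl isomerase) was at 719.9, 749.7 and 665 CPM in PBS, 1024, 978 and 999 CPM with SE and 967, 869.9 and 862 CPM with PE. Both peptide groups were above all PBS libraries, with 0.56 ± 0.071 for SE and 0.42 ± 0.071 for PE. Fkbp2, another prolyl isomerase, and Sec61b rose with both as well (0.47 and 0.35 with SE, 0.41 and 0.31 with PE), and Pdia3 with SE (0.23). Ern1 and Eif2ak3 fell with both. Ern1 was at 52.8, 66.5 and 50.9 CPM with SE (-0.40 ± 0.12) and 46.2, 56.8 and 37.2 CPM with PE (-0.66 ± 0.12), and Eif2ak3 at 36.3 ± 4.62 CPM (mean ± SD) with SE (-0.48 ± 0.12) and 36.0 ± 6.43 CPM with PE (-0.48 ± 0.12). Dnajb9 (-0.65), Sel1l (-0.46) and Atf6 (-0.36) fell with PE. Hspa5 did not pass with any peptide alone (95% interval -0.34 to 0.14 for LE, -0.15 to 0.33 for SE and -0.29 to 0.19 for PE).

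These calls were less firm than those with IFN-γ alone or with LE or SE added to it. Without replicate 1 none of the 31 genes was called with SE or with PE, and without replicate 3 there was 1 with SE and 2 with PE. Transcript length and GC content moved with them: with offsets for both, Sec61b lost its call with each peptide, Ern1 with SE, and Fkbp2, Atf6 and Sel1l with PE, and the split with SE went from 4 higher and 2 lower to 5 and 1. The part of length and GC in these differences was not tested further. Of the exon bases of Ppib, 25.0% are shared with Snx22 on the opposite strand, and the strand setting of the counting is not given in the sources used here.

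LE added to IFN-γ lowered the ER folding machinery across nearly all roles, while Ern1 rose. Against IFN-γ alone 24 of the 31 genes were lower and 2 higher, against 50.5% of 12720 genes called (24.8% lower, 25.7% higher). Over 1.5-fold there were 14 (15.5% of all genes). The median log2 fold change was -0.55 over the 31 genes and -0.010 over all genes. The 3 peptide comparisons share the same 3 IFN-γ libraries.

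With LE, 8 of 9 chaperones fell, 7 of them over 1.5-fold. Creld2 was at 523, 538 and 461 CPM with LE+IFN-γ, against 1171 to 1250 CPM with IFN-γ (-1.25 ± 0.065, adjusted p = 1.13e-10). Sdf2l1, which forms a complex with Dnajb11, went from 875, 913 and 912 CPM to 419, 464 and 391 CPM (-1.07 ± 0.066, adjusted p = 9.62e-10). Dnajc3 went from 559.9, 636 and 569 CPM to 284, 293 and 259 CPM (-1.06 ± 0.06, adjusted p = 3.59e-10). In each of these the 3 LE+IFN-γ libraries lay far below the 3 with IFN-γ. Dnajb11, a J-domain co-chaperone of BiP, went from 742, 787 and 749 CPM to 383, 378 and 349 CPM (-1.02 ± 0.052), and Manf, a secreted BiP-binding protein, from 1129.8, 1177 and 1254 CPM to 623, 672 and 587 CPM (-0.91 ± 0.062). Hsp90b1 went from 4999, 5283 and 4762 CPM to 2677, 2837 and 2441 CPM (-0.90 ± 0.056), and Hyou1 fell by a like amount (-0.89 ± 0.058). Hspa5 fell least among these 8. It was at 10469.7, 10564 and 9382 CPM (-0.49 ± 0.062, adjusted p = 3.56e-06), below every IFN-γ library but above every PBS library. Dnajb9 alone among the chaperones rose, to 53.1, 53.8 and 51.4 CPM (0.34 ± 0.074, adjusted p = 0.000882), a call that was lost in 1 fit of all 24 libraries, where Ern1 was the 1 gene called higher.

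Of the 7 lectin chaperone and isomerase genes, 6 fell with LE. The largest change was that of Pdia4, which was at 710.2, 709 and 637 CPM with LE+IFN-γ (-0.99 ± 0.05, adjusted p = 1.12e-10). Pdia6 and Pdia3, both disulfide isomerases, fell as well (-0.83 and -0.81). P4hb, already lower with IFN-γ, was at 1944, 1958 and 1709 CPM (-0.57 ± 0.055) and Ppib at 482, 524 and 459.7 CPM (-0.71 ± 0.072), both below all IFN-γ and all PBS libraries. Canx, the membrane-bound lectin chaperone, was at 733, 696 and 713 CPM against 809.5, 770.0 and 711 CPM with IFN-γ. These ranges overlapped (95% interval -0.21 to 0.047).

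Of the degradation genes, 5 of 6 tested fell, from Syvn1, the ubiquitin ligase (-0.67), and Sel1l (-0.60) to Derl2 (-0.28). Herpud1 was at 474, 491 and 452 CPM (-0.53 ± 0.075), below all IFN-γ libraries, and Edem1 did not pass (-0.08, 95% interval -0.17 to 0.015). Of the translocation genes, 4 of 5 fell, with Sec61b at 74.0, 82.1 and 76.1 CPM (-0.56 ± 0.072) and Spcs2, a signal peptidase subunit, at -0.55 showing the largest decreases. Sec61a1, the channel itself, fell (-0.48) and Ssr3 did not pass (-0.12, adjusted p = 0.0982). Among the sensors Ern1 rose to 159, 142 and 138 CPM, above every other letter-named group but SE+IFN-γ (0.63 ± 0.084, adjusted p = 7.38e-06). Eif2ak3 fell further, to 23.9, 24.7 and 26.4 CPM (-0.42 ± 0.075, adjusted p = 0.000135). Atf6 at 316, 294 and 293 CPM (-0.14, adjusted p = 0.12) and Xbp1 at 332, 335 and 329 CPM (0.11, adjusted p = 0.0796) did not pass.

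SE added to IFN-γ also lowered most of these genes and raised Ern1. Against IFN-γ alone 25 of the 31 genes were lower and 2 higher, against 33.4% of all genes called (16.6% lower, 16.7% higher), and 9 passed 1.5-fold (7.39% of all genes). The median log2 fold change was -0.38. Of the 31 genes, 21 were lower both with LE and with SE, a joint count that was not made over all genes. Dnajc3 showed the largest decrease, at 302, 332 and 328 CPM (-0.85 ± 0.06, adjusted p = 1.1e-08). Hsp90b1 was at 2912, 3122 and 3008 CPM (-0.71 ± 0.056) and Creld2 at 687, 805 and 759 CPM (-0.67 ± 0.064). These genes were below all IFN-γ libraries, and Creld2 was within the range of the PBS libraries. Hspa5 at 10569, 11025 and 11134 CPM (-0.38 ± 0.062, adjusted p = 0.00014) stood between the IFN-γ and the PBS libraries. Dnajb11 (-0.66), Hyou1 (-0.63), Pdia4 (-0.62), Pdia3 (-0.59) and Sel1l (-0.56) fell as well. P4hb at 2569, 2606 and 2557 CPM, Sec61b at 103, 111 and 103 CPM, Derl2 and Dnajb9 did not pass. Eif2ak3 reached its lowest level of all groups, 19.4, 19.9 and 19.9 CPM (-0.75 ± 0.076, adjusted p = 7.29e-07). Ern1 rose to 161, 138 and 143 CPM (0.65 ± 0.084, adjusted p = 1.23e-05), Xbp1 to 340.1, 338 and 334 CPM (0.14 ± 0.051, adjusted p = 0.036), a call that was lost without the filter on low counts, in 1 fit of all 24 libraries, with the offsets and whichever replicate was left out, and Atf6 fell to 269.8, 258 and 273 CPM (-0.30 ± 0.071, adjusted p = 0.00337). Among these 4 genes Ern1 and Eif2ak3 passed 1.5-fold.

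PE added to IFN-γ shifted these genes as a set less than LE or SE did, with most of them slightly lower than with IFN-γ alone. The median log2 fold change was -0.11 over the 31 genes and -0.0042 over all genes. Of the 31 values, 22 were negative and 9 positive, a count that was not made over all genes. Against IFN-γ 5 of the 31 genes were lower and 1 higher, against 10% of all genes called (4.58% lower, 5.43% higher), and none of the 31 passed 1.5-fold (0.629% of all genes). The lower ones were Eif2ak3 at 25.9, 24.8 and 23.2 CPM (-0.43 ± 0.075, adjusted p = 0.00493), Sel1l (-0.26), Canx (-0.25), Dnajc3 (-0.23) and Pdia4 (-0.17), and the higher one was Fkbp2 (0.24, adjusted p = 0.0478), which was at 0.031 with the offsets. Hspa5 was at 14549.6, 14066 and 13282 CPM and Creld2 at 1140.2, 1124 and 1184 CPM, overlapping IFN-γ alone, with 95% intervals of -0.15 to 0.11 and -0.19 to 0.076 on the log2 scale. Ern1 at 84.9, 84.8 and 69.3 CPM did not pass (-0.23, adjusted p = 0.0836). The number called depended on the libraries, with 0 without replicate 1 or 3, 12 without replicate 2, and with DESeq2-type size factors all 6 called were lower. At an unadjusted p under 0.05 of edgeR's test, 14 of the 31 were lower and 3 higher, a count that was not made over all genes.

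**Figure D4:**
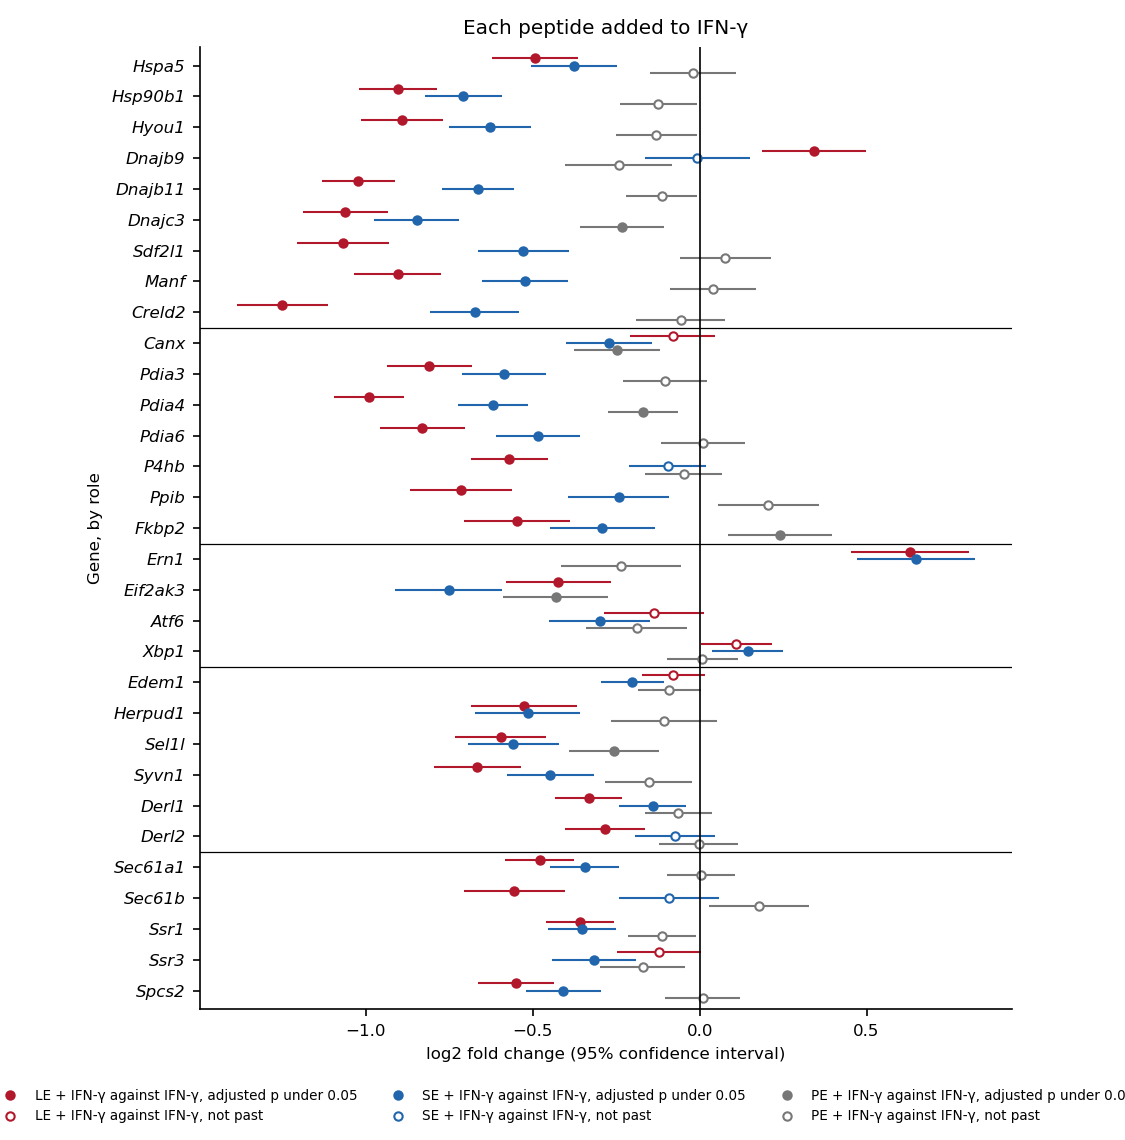
Log2 fold change of each of the 31 genes (y axis, by role) for LE, SE and PE added to IFN-γ against IFN-γ alone (x axis), with points for the estimate, filled where the adjusted p was under 0.05, and lines for the 95% confidence interval. LE (red) lies left of SE (blue) for most chaperones and isomerases, both rise for Ern1 (0.63 and 0.65), and PE (grey) ranges from -0.43 to 0.24.

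The 3 peptides differ in a few residues of the same stretch and were compared directly at the same dose and time in the presence of IFN-γ, which gives 3 pairs. The p-values were adjusted over all genes within each pair and not over the pairs. LE was lower than SE for 19 of the 31 genes and higher for 5, against 35.6% of all genes called (16.5% lower, 19% higher). None of these differences reached 1.5-fold, which 4.93% of all genes did. The largest were those of Creld2 (-0.58 ± 0.064, adjusted p = 1.22e-05), Sdf2l1 (-0.54 ± 0.065, adjusted p = 2.27e-05), P4hb (-0.47 ± 0.055, adjusted p = 1.58e-05), Ppib (-0.47 ± 0.072), Sec61b (-0.46 ± 0.072) and Manf (-0.38 ± 0.062). In the libraries, Sdf2l1 was at 562, 662 and 615 CPM, Ppib at 637, 718 and 661 CPM and Manf at 760.0, 859 and 814 CPM with SE+IFN-γ. Each was above all LE+IFN-γ libraries. LE was higher than SE for Dnajb9 (0.35 ± 0.074, adjusted p = 0.00171) and Eif2ak3 (0.33 ± 0.077, adjusted p = 0.00348), and for Ssr3 (0.19), Canx (0.19) and Edem1 (0.12). With the offsets for length and GC, 19 were lower and 2 higher, Edem1 (-0.00278), Canx (0.00477) and Ssr3 (-0.00504) lost their calls, and Fkbp2 went from -0.26 to 0.066. In 1 fit of all 24 libraries 16 were lower and 1 higher. Without replicate 3, 15 of the 31 were called in all. No difference was detected for Hspa5 (95% interval -0.25 to 0.012), Ern1 (-0.19 to 0.16), Herpud1 (-0.17 to 0.15) and Xbp1 (-0.14 to 0.072).

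PE stood apart from both. LE was lower than PE for 23 genes and higher for 3, against 59.9% of all genes called (29.9% lower, 30% higher), with 15 past 1.5-fold (21.6% of all genes). Creld2 differed most (-1.19 ± 0.064, adjusted p = 2.38e-10), then Sdf2l1 (-1.15 ± 0.066), with 911, 925 and 959 CPM in the PE+IFN-γ libraries. Ern1 differed most in the other direction (0.87 ± 0.085, adjusted p = 1.55e-07). SE was lower than PE for 21 genes and higher for 3, against 34.4% of all genes (17.1% lower, 17.3% higher), led by Creld2 (-0.62 ± 0.064) and Dnajc3 (-0.62 ± 0.06) on 1 side and Ern1 (0.88 ± 0.085) on the other. For 16 genes, a count that was not made over all genes, LE was lower than SE and SE lower than PE in both tests. These were Creld2, Dnajb11, Dnajc3, Hsp90b1, Hyou1, Manf and Sdf2l1 of the chaperones, Fkbp2, Pdia3, Pdia4, Pdia6 and Ppib of the isomerases, Sec61a1, Sec61b and Spcs2 of translocation, and Syvn1 of degradation. Eif2ak3 did not follow this order, and the interval of its difference between LE and PE was -0.15 to 0.17.

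The response to IFN-γ itself was then compared between cells with and without a peptide. With PE in both groups 14 genes were higher and 5 lower (49.9% of 12947 genes called, 25.4% higher and 24.5% lower). Hspa5 rose by 1.01 ± 0.078, Herpud1 by 0.91 ± 0.077 and Creld2 by 0.65 ± 0.091. Of the 14 genes that rose with IFN-γ alone, 11 rose with PE too and 0 fell. Joint counts of this kind, here and below, were not made over all genes. With LE in both groups 7 genes were higher and 21 lower (65.9% of all genes called, 33.2% higher and 32.7% lower), and with SE 5 and 18 (57.5%, 28.7% higher and 28.8% lower). Of the same 14 genes, 9 were lower with LE+IFN-γ than with LE. These were Creld2, Derl1, Dnajb11, Dnajc3, Hsp90b1, Hyou1, Manf, Pdia4 and Sdf2l1. Hspa5, Herpud1, Atf6 and Ern1 were still higher, and Sel1l did not pass. Creld2 was at 783, 736 and 761 CPM with LE and 461 to 538 CPM with LE+IFN-γ (-0.61 ± 0.091, adjusted p = 5.89e-06). Hspa5 was at 6928, 6542 and 6404 CPM with LE and 9382 to 10564 CPM with LE+IFN-γ (0.59 ± 0.078, adjusted p = 1.14e-06). The direction of the IFN-γ response was thus opposite in these 2 genes when LE was present, whereas both rose without it. Sec61b (-1.35 ± 0.075) and P4hb (-1.20 ± 0.082) fell most and Ern1 rose most (1.23 ± 0.11), from 65.9, 65.4 and 52.5 CPM with LE. With SE, Ern1 rose by 1.34 ± 0.11, Dnajc3 fell (-0.77) and Hspa5 rose by 0.51 ± 0.078.

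**Figure D5:**
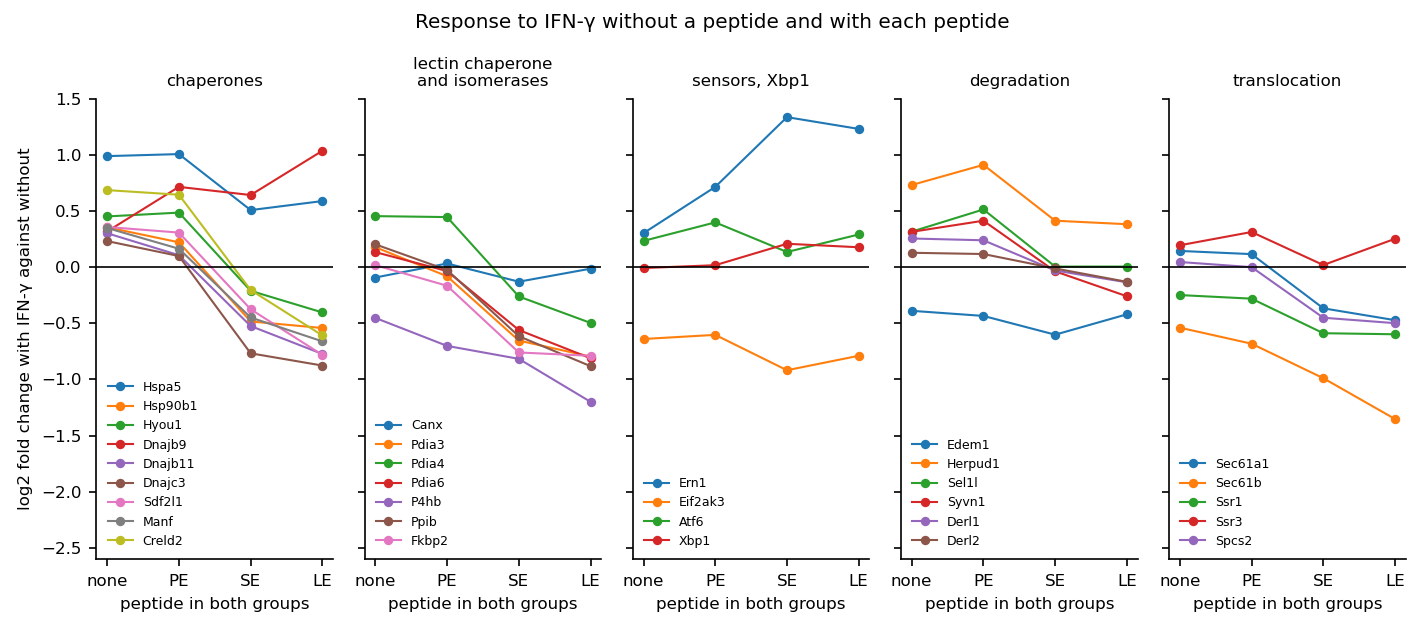
Log2 fold change with IFN-γ against without it (y axis) when both groups had no peptide, PE, SE or LE (x axis), in 5 panels by role, with lines joining the values of 1 gene. Most chaperones and isomerases go from above or near 0 without a peptide and with PE to below 0 with SE and LE, and Ern1 goes from 0.30 to 1.34 and 1.23.

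The change in the IFN-γ response was tested as an interaction in the 24 libraries together. With LE it passed for 23 genes, 21 of them negative (38.5% of 13096 genes called, 19.6% negative and 18.8% positive). With SE it passed for 21, of which 20 were negative (19.8% of all genes, 10.3% negative and 9.46% positive). Past 1.5-fold there were 17 with LE (18.9% of all genes) and 13 with SE (7.96%). With PE edgeR called 0 of the 31 and 0 of all genes, and DESeq2 called 0 of the 31. At an unadjusted p under 0.05 there were 5 of the 31, a count that was not made over all genes. For Creld2 the interaction was -1.30 ± 0.16 with LE (adjusted p = 1.51e-06) and -0.88 ± 0.16 with SE (adjusted p = 0.000354). For Dnajc3 it was -1.11 ± 0.091 and -0.99 ± 0.091, and for Hspa5 -0.40 ± 0.14 (adjusted p = 0.0218) and -0.47 ± 0.14 (adjusted p = 0.0153). Without replicate 1 the values of Hspa5 were -0.25 and -0.34 and did not pass. For Ern1 it was positive, at 0.93 ± 0.15 (adjusted p = 5.85e-05) and 1.04 ± 0.16 (adjusted p = 4.9e-05). Eif2ak3, which fell with IFN-γ without a peptide and with each of the 3, did not pass with either (95% intervals -0.44 to 0.14 and -0.57 to 0.026). With PE the intervals were -0.38 to 0.28 for Creld2, -0.27 to 0.29 for Hspa5 and 0.083 to 0.73 for Ern1, none of them adjusted for the number of genes.

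Set beside PBS rather than IFN-γ alone, the CPM of all 3 LE+IFN-γ libraries lay below that of all 3 PBS libraries in 22 of the 31 genes and above it in 3, which were Hspa5, Ern1 and Dnajb9. Over all 13096 genes 34.2% lay below and 30.4% above. With SE+IFN-γ 18 were below (33.2% of all genes) and 2 above (26.9%), and with PE+IFN-γ 6 below (30.4%) and 14 above (25.9%). With IFN-γ alone 17 were above (24% of all genes) and 5 below (25.9%).

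Most genes with and most genes without the searched motifs fell with LE+IFN-γ and with SE+IFN-γ. Of the 9 tested genes with an ERSE or ERSE-II in the window, 6 rose with IFN-γ, 8 fell with LE+IFN-γ against IFN-γ (median log2 fold change -0.83) and 9 fell with SE+IFN-γ (median -0.52). Of the 17 genes whose windows held neither, 4 rose and 5 fell with IFN-γ, 12 fell with LE+IFN-γ (median -0.55) and 11 with SE+IFN-γ (median -0.29). Over all genes tested 20.2% rose and 19.5% fell with IFN-γ, 24.8% fell with LE+IFN-γ and 16.6% with SE+IFN-γ. The 4 of 17 that rose with IFN-γ were thus near the share of all genes. Sdf2l1 and Pdia4, which hold neither, fell with LE+IFN-γ (-1.07 and -0.99), and Canx, which holds the ERSE, had the smallest change with LE+IFN-γ of its set.

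Other genes of the same pathways, from lists of related function that were also chosen with earlier results known, gave a wider view. Of 24 other ER folding enzymes tested, 18 were lower and 1 higher with LE+IFN-γ than with IFN-γ, led by Fkbp11 (-1.37), a prolyl isomerase, Fkbp7 (-0.94) and Pdia5 (-0.82). Over all genes 24.8% were lower and 25.7% higher in this comparison. With SE+IFN-γ 17 were lower and 1 higher (16.6% and 16.7% of all genes), and with PE+IFN-γ 1 and 1 (4.58% and 5.43%). Of 25 other genes of translocation, signal peptide cleavage and N-glycosylation, 19 were lower and 2 higher with LE+IFN-γ, among them Rpn1, of the oligosaccharyl transferase (-0.89), Sec61g (-0.82) and Ssr2 (-0.58). Of 16 other degradation genes 5 were lower and 1 higher, the lower ones in a share near that of all genes, with a median of -0.067, and the largest change was that of Os9, a lectin that recognises misfolded glycoproteins (-0.66). Of the 7 other transducers and processing proteases tested, 5 were lower and 1 higher, among them Creb3l1 (-0.74), Creb3l2 (-0.60) and, higher, Mbtps2 (0.58), a protease that cleaves ATF6.

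Genes listed under the arm of PERK and the factors ATF4 and CHOP were mostly higher with IFN-γ. The activity of PERK was not measured, and these counts do not show through which kinase the genes rose. Of the 10, 9 rose with IFN-γ alone (20.2% of all genes), led by Ddit3 (CHOP, 1.69), Nupr1 (1.68) and Ppp1r15a, which restores translation (1.47), with a median of 0.97. With LE+IFN-γ against IFN-γ 3 were lower and 2 higher, shares near those of all genes (24.8% and 25.7%), with a median of -0.074, and Atf3 rose (0.87) while Sesn2 (-0.43) and Ddit3 (-0.40) fell. With LE in both groups 9 of the 10 still rose with IFN-γ (33.2% of all genes), and the interaction passed for 1 gene in each direction (19.6% of all genes negative and 18.8% positive). Eif2ak3 itself fell with IFN-γ in the same libraries in which these genes were higher.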

How the data were processed

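RNA was measured in 48 libraries of RAW264.7 cells, of which 24 letter-named libraries (3 in each of 8 groups, by label) were compared. The authors deposited raw read counts per gene, made from uniquely aligned poly(A) single-end reads with featureCounts on GENCODE M12 (GRCm38.p5). The aligner and the strand setting are not given in the sources used here. The submitters' notes name DESeq2 1.16.1 and R 3.4.1.

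Members and lists were chosen with earlier results of these data known. Counts were filtered (filterByExpr), scaled by TMM and tested over all genes by edgeR 4.0.16's quasi-likelihood test in R 4.3.3, with Benjamini-Hochberg adjustment and a threshold of 0.05. Only the groups of a comparison, or those of its family, entered a fit. CPM were taken over the library total, without TMM. The test was checked on simulated counts. Per-library values are given for the leading chaperones, sensors and translocation genes, and others for the extremes of each role. The replicate number was not used as a block. Alternatives were DESeq2 1.42.0, other size factors, no filter, 1 fit of all libraries, a block, offsets for length and GC, leaving out replicates, and adding the HLA-named libraries. Sequences are from RefSeq (GRCm38.p6).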

Additional observations from a re-analysis of the deposited data

Results flagged for a closer look

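The IFN-γ response of these genes differed from that without a peptide in 17 genes with LE (18.9% of all genes) and in 13 with SE (7.96% of all genes), by more than 1.5-fold and at an adjusted p under 0.05 of edgeR's quasi-likelihood interaction test, and these are given as values with no explanation. A value is the difference between 2 log2 fold changes, the response to IFN-γ with the peptide minus that without it. With LE the chaperone values were -1.30 for Creld2, -1.14 for Sdf2l1, -1.11 for Dnajc3, -1.08 for Dnajb11, -1.01 for Manf, -0.90 for Hsp90b1 and -0.86 for Hyou1. The isomerase values were -1.09 for Ppib, -0.98 for Pdia3, -0.95 for Pdia4, -0.95 for Pdia6, -0.81 for Fkbp2 and -0.75 for P4hb. The translocation genes had -0.81 for Sec61b and -0.62 for Sec61a1, and the positive values were 0.93 for Ern1 and 0.72 for Dnajb9. With SE the chaperone values were -0.88 for Creld2, -0.73 for Sdf2l1, -0.99 for Dnajc3, -0.82 for Dnajb11, -0.79 for Manf, -0.83 for Hsp90b1 and -0.66 for Hyou1. The isomerases had -0.81 for Ppib, -0.83 for Pdia3, -0.71 for Pdia4, -0.69 for Pdia6 and -0.77 for Fkbp2, and Ern1 had 1.04. Groups held 3 libraries, so no library was tested for standing apart from its group. These tests share the PBS and IFN-γ libraries between the peptides.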

How the results depend on the processing

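Numbers below are of the 31 genes called in each comparison. The share of all genes called under each alternative setting is not given here. The numbers therefore do not show whether these genes or all genes gained or lost calls. The numbers called with LE or SE against IFN-γ, against the peptide alone and in the interactions stayed within 1.5 times of their number under every setting except the addition of the HLA-named libraries. LE alone gave 1 call with DESeq2, 4 with no filter on low counts, 1 in one fit of all 24 libraries, and 1 with a replicate block without and with the length and GC offsets. SE alone gave 11 with no filter, 10 in one fit, 12 with the replicate block and 13 with block and offsets. PE alone gave 13 with DESeq2, 13 with no filter, 14 in one fit and 14 with the replicate block. PE+IFN-γ against IFN-γ gave 10 with DESeq2, 11 with no filter, 2 in one fit and 10 with the replicate block. The replicate block moved no other number by over 1.5 times. Deviations from the group means of same-numbered libraries correlated over 0.1 in 25 of 84 pairs (median r 0.049), against 12 of 168 different-numbered pairs (median -0.023). Not every same-numbered pair passed 0.1. The letters run from A to H for replicate 1, I to P for replicate 2 and Q to X for replicate 3. The labels do not say what the number stands for. Leaving out 1 replicate of every group gave 11 to 20 for IFN-γ against PBS, 0 to 5 for SE alone, 0 to 10 for PE alone, 0 to 12 for PE+IFN-γ and 15 to 19 for LE against SE with IFN-γ. Fewer libraries entered those fits, and the cause of the other changes was not tested.

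With the length and GC offsets 3 genes changed sign between LE and SE with IFN-γ. Edem1 was at -0.00278 (-0.00257 with the replicate block), Ssr3 at -0.00504 (-0.00612 with the block) and Fkbp2 at 0.066 (0.067 with the block).

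With the HLA-named libraries added, 0 genes were called for IFN-γ against PBS, 20 for LE, 0 for SE and 18 for PE alone, 17 for LE+IFN-γ, 0 for SE+IFN-γ and 0 for PE+IFN-γ against IFN-γ. There were 4 for LE against SE, 16 for LE against PE and 6 for SE against PE with IFN-γ, 6 for LE+IFN-γ against LE, 0 for SE+IFN-γ against SE, and 0 for the interaction with LE or with SE. In that fit some log2 fold changes turned: Dnajc3 with IFN-γ (-0.00159), Fkbp2 (-0.22), Ppib (-0.36) and Sec61b (-0.40) with PE, Hspa5 with LE+IFN-γ against IFN-γ (0.14), Creld2 with LE+IFN-γ against LE (0.76), and Canx (-0.014), Edem1 (-0.18), Eif2ak3 (-0.14) and Manf (0.012) between LE and SE. In the interaction with LE the values that turned were 0.50 for Creld2, 0.17 for Dnajb11, 0.29 for Dnajc3, 0.35 for Hsp90b1, 0.47 for Hspa5, 0.44 for Hyou1, 0.25 for Manf, 0.087 for Pdia3, 0.55 for Pdia4, 0.17 for Pdia6, 0.019 for Ppib, 0.22 for Sdf2l1 and 0.097 for Sec61a1. Of the 24 added libraries, 12 went against their IFN-γ label, so that this setting could not check the results of the letter-named libraries. The part of the labels in the change was not tested.

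Depth limited Derl3 alone among the 32 genes. Groups of 3 libraries limit the precision of all values.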

Other observations

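In the HLA-named libraries, which entered the comparisons only in the setting that added them by label, the 32 genes took 3.77% ± 0.39 (SD, n = 3) of the counts under the label PBS, 3.32% ± 0.094 under SE, 3.36% ± 0.22 under IFN-γ and 3.09% ± 0.11 under SE+IFN-γ. Under LE the share was 1.70% ± 0.47, under PE 1.79% ± 0.28, under LE+IFN-γ 3.81% ± 0.024 and under PE+IFN-γ 3.75% ± 0.023. The mean log2 level of the 20 IFN-γ target genes in the same libraries was 6.81 to 7.02 under LE and PE and 2.33 to 2.49 under IFN-γ and SE+IFN-γ. In the count table the columns stand in 8 blocks of 3 letter-named and 3 HLA-named libraries, and in all 8 the HLA-named ones carry the label of another group than the letter-named ones. In each block, however, the IFN-γ target level of the HLA-named libraries was on the same side as that of the letter-named ones. It was 2.33 to 2.65 beside letter-named groups without IFN-γ and 6.33 to 7.02 beside those with it. The shares above are given by label, with no comparison between them, and whether the labels are in the right order was not tested.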
